A study of Schizosaccharomyces pombe with 9 samples.

Results

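This account describes 10 genes of the oxidative stress response in the fission yeast Schizosaccharomyces pombe, chosen by their gene identifiers from the 5129 genes of the count table. They are pap1 (SPAC1783.07c), trr1 (SPBC3F6.03), tpx1 (SPCC576.03c), srx1 (SPBC106.02c), obr1 (SPAC3C7.14c), ctt1 (SPCC757.07c), sod1 (SPAC821.10c), gst1 (SPCC191.09c), gst2 (SPCC965.07c) and gst3 (SPAC688.04c). All 10 were found in the table and all 10 passed the filter on low counts. Poly(A)-selected RNA was sequenced from 3 genotypes, each a single strain with 3 replicates: wild type (WT, strain DHP43), a deletion of tra1 (tra1D, strain DHP609) and a strain with a tra1 allele called tra1-AA (strain DHP1509). The labels do not say what tra1-AA changes in the gene. tra1 encodes a subunit of SAGA, a complex that helps to start transcription, and belongs to the family of kinases related to phosphatidylinositol 3-kinase. All cultures grew to mid-logarithmic phase in YES, a rich medium, and the labels name no oxidant, so the levels are those of growing cells. Whether replicates were separate cultures is not stated, and the p-values speak only of the spread between these libraries, which may be technical.

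In S. pombe, hydrogen peroxide is removed mainly by the peroxiredoxin Tpx1, by catalase and by related peroxidases. Thioredoxin, recharged by thioredoxin reductase, returns oxidised Tpx1 to its working form. Peroxide also leads, through Tpx1, to the oxidation of Pap1, a bZIP factor akin to AP-1, which then stays in the nucleus and activates detoxification genes. Another branch runs through the MAP kinase Sty1 to the bZIP factor Atf1, and glutathione transferases attach glutathione to reactive compounds.

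Library totals lay between 5738138 and 8101004 counts, so that 1 count equalled 0.126 to 0.168 CPM (the count scaled by edgeR's TMM factors to a common library size, the unit of all levels below). The tra1 transcript itself had 97.3, 96.0 and 88.9 CPM in WT, 0.726, 0.259 and 0.335 CPM in tra1D and 87.1, 79.7 and 70.6 CPM in tra1-AA, as the label of the deletion requires. Titles of WT and tra1D, but not of tra1-AA, are marked as a re-analysis. For tra1-AA against WT, and for tra1-AA against tra1D, this mark and the genotype cannot be told apart. Both mutants are compared with the same 3 WT libraries, so their results are not independent of each other.

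In both mutants obr1 and gst2 fell more than 4-fold, tpx1, ctt1 and gst3 rose between 1.39-fold and 1.63-fold, and pap1 fell by a small amount. trr1, srx1, sod1 and gst1 did not pass the test in either mutant. Of the 10 genes, 6 passed in tra1-AA (3 rose and 3 fell), where 15.9% of the 4913 genes tested passed, 7.94% upward and 7.96% downward (edgeR quasi-likelihood test, Benjamini-Hochberg adjusted p under 0.05). In tra1D 6 also passed, 3 upward and 3 downward, against 11.5% of all genes tested, 5.17% upward and 6.35% downward. These shares depend on single libraries. In tra1-AA, 781 of all genes passed, against 398 without WT replicate 1, 364 without tra1-AA replicate 2 and 845 without tra1-AA replicate 1. In tra1D, 566 passed, against 281 without WT replicate 1, 278 without tra1D replicate 2, 323 without tra1D replicate 3 and 655 without tra1-AA replicate 1. The count among the 10 genes stayed between 4 and 6 in these fits. The median log2 fold change of the 10 genes was -0.12 in tra1-AA and 0.10 in tra1D. The median size of change, whatever its sign, was 0.53 and 0.52 log2 units, beside 0.145 and 0.133 over all genes tested. The 10 genes were chosen with earlier results of these data known. Neither their count nor this size is therefore a test of the set. Only 2 of the 10, obr1 and gst2, passed with a change of at least 2-fold in either mutant, as did 98 of all genes tested in tra1-AA and 97 in tra1D. In bulk RNA, a lower level in every cell and a loss in some of the cells cannot be told apart.

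**Figure D1:**
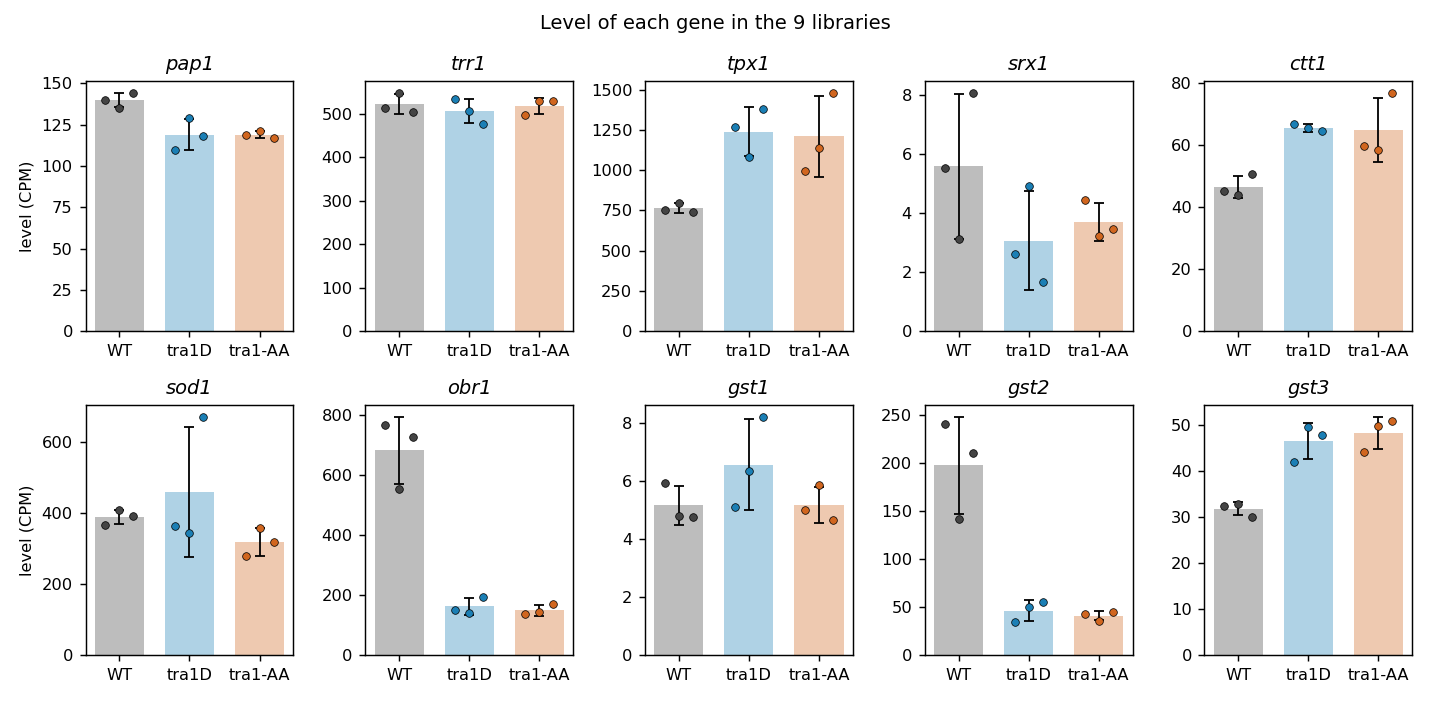
Level of each of the 10 genes, in CPM on an axis from 0, in WT, tra1D and tra1-AA; points are libraries, bars the mean and error bars the SD of 3 replicates. obr1 and gst2 stand far below WT in all 6 mutant libraries, tpx1, ctt1 and gst3 stand above it, and 1 tra1D library has a high level of sod1 (670 CPM).

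pap1, which encodes the AP-1-like factor, lies on chromosome I (I:2200353-2202989, minus strand, build ASM294v3). It had 140, 135 and 144 CPM in WT, 110, 129 and 118 CPM in tra1D and 119, 121 and 117 CPM in tra1-AA. All 6 mutant libraries were below all 3 WT libraries. It fell by 0.23 on the log2 scale in each mutant (SE 0.067 in both, edgeR quasi-likelihood test), with a BH-adjusted p of 0.0374 in tra1-AA and 0.0474 in tra1D. Both calls lie near the threshold and were lost in most fits with a library left out: 3 of 9 kept the call in tra1-AA (those without WT replicate 2, tra1D replicate 1 or tra1D replicate 2) and 2 of 9 in tra1D (those without tra1D replicate 2 or tra1-AA replicate 1). The log2 fold change in these fits ran from -0.26 to -0.21 in tra1-AA and from -0.29 to -0.175 in tra1D. Scaled by library totals alone, the changes were -0.19 and -0.16 and did not pass.

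obr1, annotated as an NAD(P)H dehydrogenase (quinone), is a well-known Pap1-dependent gene. It lies at I:2094110-2094984 on the minus strand of ASM294v3. The 300 bases before its annotated transcript start are shown because obr1 had the lowest adjusted p of the 10 genes in each mutant, and because they hold the letters TTAGTCA and TTACGTAA, which resemble sites bound by Pap1. They are the RefSeq sequence of ASM294v3, I:2094985-2095284, minus strand, with the matches in capitals, and the start of the transcript follows the last base.
obr1: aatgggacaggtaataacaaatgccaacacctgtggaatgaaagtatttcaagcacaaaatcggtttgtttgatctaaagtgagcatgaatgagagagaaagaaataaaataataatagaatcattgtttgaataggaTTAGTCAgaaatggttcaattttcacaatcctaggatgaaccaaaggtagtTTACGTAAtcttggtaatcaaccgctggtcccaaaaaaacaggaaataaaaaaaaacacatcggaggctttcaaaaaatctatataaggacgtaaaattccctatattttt
TTAGTCA lies 162 to 156 bases and TTACGTAA 111 to 104 bases before the start.

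obr1 had 766, 555 and 727 CPM in WT, 150, 141 and 194 CPM in tra1D and 135, 143 and 169 CPM in tra1-AA. Every mutant library was far below the lowest WT library, and the ranges of the mutants overlapped each other. The fall was 4.59-fold in tra1-AA (95% interval 3.67 to 5.73, edgeR, BH-adjusted p = 3.4e-06) and 4.23-fold in tra1D (3.39 to 5.27, BH-adjusted p = 5.08e-06), or -2.20 (SE 0.147) and -2.08 (SE 0.146) on the log2 scale. Counted from the lowest log2 fold change among the 4913 genes tested, obr1 ranked 23 in tra1-AA and 19 in tra1D. An antisense noncoding gene, SPNCRNA.793, covers 100% of the obr1 transcript and is not a row of the count table. No source used here gives the strand setting of the counting, and reads from both strands cannot be told apart for obr1.

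The next genes belong to the thioredoxin system. tpx1, the peroxiredoxin gene, lies at III:2084942-2085719 on the minus strand. Its upstream 300 bases (RefSeq, ASM294v3, III:2085720-2086019, minus strand) are shown because they too hold TTAGTCA, although tpx1 moved in the opposite direction to obr1. The match is on the reverse strand and so reads TGACTAA, in capitals, 179 to 173 bases before the start.
tpx1: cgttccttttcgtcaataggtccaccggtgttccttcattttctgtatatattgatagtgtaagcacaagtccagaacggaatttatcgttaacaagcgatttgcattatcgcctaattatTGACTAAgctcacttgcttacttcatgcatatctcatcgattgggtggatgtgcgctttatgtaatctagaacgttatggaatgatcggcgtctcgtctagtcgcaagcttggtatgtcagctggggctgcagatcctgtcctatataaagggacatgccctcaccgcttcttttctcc
The gene had 755, 799 and 738 CPM in WT, 1270, 1080 and 1380 CPM in tra1D and 993, 1140 and 1480 CPM in tra1-AA. All mutant libraries were above WT, with the widest spread in tra1-AA. It rose 1.58-fold in tra1-AA (log2 fold change 0.66, 95% interval 0.36 to 0.96, edgeR, BH-adjusted p = 0.0083) and 1.63-fold in tra1D (0.70, 0.40 to 1.00, BH-adjusted p = 0.00684). With a library left out the log2 fold change ran from 0.48 to 0.78 in tra1-AA and from 0.62 to 0.79 in tra1D, and all 9 fits of each comparison passed. On the same strand, the noncoding genes SPNCRNA.1258 and SPNCRNA.1259 overlap 11.4% and 2.8% of the tpx1 transcript. Neither is a row of the count table, and reads from the shared bases cannot be told apart by strand.

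trr1, which encodes thioredoxin reductase (II:4189799-4191448, plus strand), had nearly the same level in all genotypes. It had 514, 548 and 505 CPM in WT, 533, 507 and 477 CPM in tra1D and 497, 529 and 530 CPM in tra1-AA. The ranges overlapped throughout. The log2 fold change was -0.01 in tra1-AA (95% interval -0.17 to 0.15, edgeR, BH-adjusted p = 0.940) and -0.05 in tra1D (-0.20 to 0.11, BH-adjusted p = 0.714). The interval is narrow enough to leave out a change of the size seen for tpx1 in either direction. An antisense noncoding gene covers 49.3% of the trr1 transcript, with the same limit as for obr1.

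srx1 (II:376253-377012, minus strand) encodes sulfiredoxin, which repairs Tpx1 that has been oxidised too far. It had few counts in every library. WT had 44, 23 and 51 counts, tra1D had 18, 38 and 10, and tra1-AA had 31, 23 and 23, or 5.59 ± 2.47, 3.07 ± 1.67 and 3.70 ± 0.648 CPM (SD, n = 3). The groups overlapped. The log2 fold change was -0.57 in tra1-AA (95% interval -1.42 to 0.27, edgeR, BH-adjusted p = 0.346) and -0.80 in tra1D (-1.67 to 0.07, BH-adjusted p = 0.223). Single libraries moved these values: that of tra1-AA was -0.24 without WT replicate 3 and -0.865 without WT replicate 2, and that of tra1D was -0.46 without WT replicate 3, -0.53 without tra1D replicate 3 and -1.34 without tra1D replicate 2. From summed counts, tra1-AA had 0.677 of the WT level (77 against 118 counts, exact 95% interval 0.501 to 0.910). tra1D had 0.586 of it (66 against 118 counts, 0.427 to 0.799). These intervals cover counting error only, and the spread between replicates was larger than counting alone gives. With this spread between replicates neither change passed, and whether srx1 changed is not settled by these libraries. An antisense noncoding gene covers 91.1% of the srx1 transcript.

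ctt1, the catalase gene, and sod1, the gene for the copper and zinc superoxide dismutase of the cytosol, act on peroxide and superoxide. ctt1 (III:56654-58833, minus strand) is known to respond to Sty1 and Atf1 as well as to Pap1. A stretch of 30 bases around a TGACGT match, letters resembling a site for Atf1, is shown for ctt1 and for gst3, because these genes rose and are the members that hold it. The sequences are from RefSeq ASM294v3, at III:58875-58904 for ctt1 and I:3116927-3116956 for gst3, both minus strand, with the match in capitals.
ctt1: attgtgcaaataTGACGTtggtaattctac
gst3: tatttcggtgacTGACGTgcatatgaggtg
The match starts 59 bases before the transcript start of ctt1 and 48 bases before that of gst3.

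ctt1 had 45.3, 43.9 and 50.7 CPM in WT, 66.8, 65.5 and 64.4 CPM in tra1D and 59.6, 58.4 and 76.8 CPM in tra1-AA. Every mutant library was above the highest WT library. The rise was 1.39-fold in tra1-AA (log2 fold change 0.48, 95% interval 0.24 to 0.72, edgeR, BH-adjusted p = 0.0131) and 1.41-fold in tra1D (0.49, 0.26 to 0.73, BH-adjusted p = 0.0139). Without WT replicate 1 the log2 fold changes were 0.46 and 0.47 and did not pass (edgeR, BH-adjusted p = 0.0557 and 0.0608).

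sod1 (I:1002838-1003600, minus strand) did not pass in either mutant, and 1 library of tra1D stood apart. It had 366, 408 and 391 CPM in WT, 363, 344 and 670 CPM in tra1D and 278, 356 and 317 CPM in tra1-AA. The 3 tra1-AA libraries were below all WT libraries, while in tra1D only replicate 3 was above WT. The log2 fold change was -0.29 in tra1-AA (95% interval -0.74 to 0.15, edgeR, BH-adjusted p = 0.362) and 0.24 in tra1D (-0.21 to 0.69, BH-adjusted p = 0.483). Without tra1D replicate 3 the change in tra1D was -0.14. Deviations of same-numbered WT and tra1-AA libraries correlated at 0.109 to 0.357 over genes, which does not establish a pairing. With the replicate number as a block and only WT and tra1-AA in the fit, sod1 passed in tra1-AA (-0.31, edgeR, BH-adjusted p = 0.0139). This fit also leaves out the tra1D libraries, and with them left out but no block sod1 did not pass (-0.30, edgeR, BH-adjusted p = 0.086). The fit reported shares 1 estimate of the spread over all 9 libraries, those of tra1D included. Without tra1D replicate 3 the change of sod1 in tra1-AA stayed at -0.29, with a BH-adjusted p of 0.0591 (edgeR).

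The glutathione transferase genes moved in different directions. gst1 and gst2 are close relatives, with 77.3% identity over 679 aligned bases of their transcripts. Their longest shared run of coding bases is 19, and no near-identical copy of either was found. gst2 (III:2294617-2296105, minus strand) is shown with its upstream 300 bases (RefSeq, ASM294v3, III:2296106-2296405, minus strand), because it fell as obr1 did and also holds TTAGTCA, on the reverse strand, 107 to 101 bases before the start.
gst2: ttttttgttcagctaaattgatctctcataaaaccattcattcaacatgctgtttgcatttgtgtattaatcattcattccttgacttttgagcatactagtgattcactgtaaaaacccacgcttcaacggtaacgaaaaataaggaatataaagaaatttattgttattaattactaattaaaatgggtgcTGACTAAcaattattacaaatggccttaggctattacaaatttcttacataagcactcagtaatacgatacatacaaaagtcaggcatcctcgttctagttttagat
The match is in capitals and reads TGACTAA, as in tpx1.

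gst2 had 241, 142 and 211 CPM in WT, 34.4, 49.7 and 54.8 CPM in tra1D and 42.7, 35.5 and 44.3 CPM in tra1-AA. The highest mutant library was well below the lowest WT library, and WT varied most. The fall was 4.86-fold in tra1-AA (95% interval 3.60 to 6.55, edgeR, BH-adjusted p = 2.93e-05) and 4.29-fold in tra1D (3.19 to 5.77, BH-adjusted p = 4.54e-05), or -2.28 (SE 0.198) and -2.10 (SE 0.196) on the log2 scale. It ranked 20 and 17 from the lowest among the genes tested. An antisense noncoding gene, SPNCRNA.7703, covers 100% of the gst2 transcript, with the same limit as for obr1.

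gst3 (I:3115639-3116896, minus strand) rose while gst2 fell. It had 32.3, 32.9 and 30.1 CPM in WT, 42.0, 49.6 and 47.9 CPM in tra1D and 44.2, 49.8 and 50.8 CPM in tra1-AA. The groups did not overlap with WT and the replicates of each were close. The rise was 1.52-fold in tra1-AA (95% interval 1.31 to 1.76, edgeR, BH-adjusted p = 0.00233) and 1.46-fold in tra1D (1.26 to 1.70, BH-adjusted p = 0.00466).

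gst1 (III:1719143-1720070, minus strand) was little expressed in all genotypes. WT had 47, 35 and 30 counts, tra1D had 35, 49 and 49, and tra1-AA had 35, 42 and 31, or 5.15 ± 0.675, 6.55 ± 1.57 and 5.18 ± 0.623 CPM (SD, n = 3). The groups overlapped. Its log2 fold change was 0.00 in tra1-AA (95% interval -0.51 to 0.52, edgeR, BH-adjusted p = 0.993) and 0.33 in tra1D (-0.17 to 0.83, BH-adjusted p = 0.382), where it was 0.15 without tra1D replicate 3. The intervals do not reach the falls of gst2. An antisense noncoding gene covers 51.6% of the gst1 transcript.

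**Figure D2:**
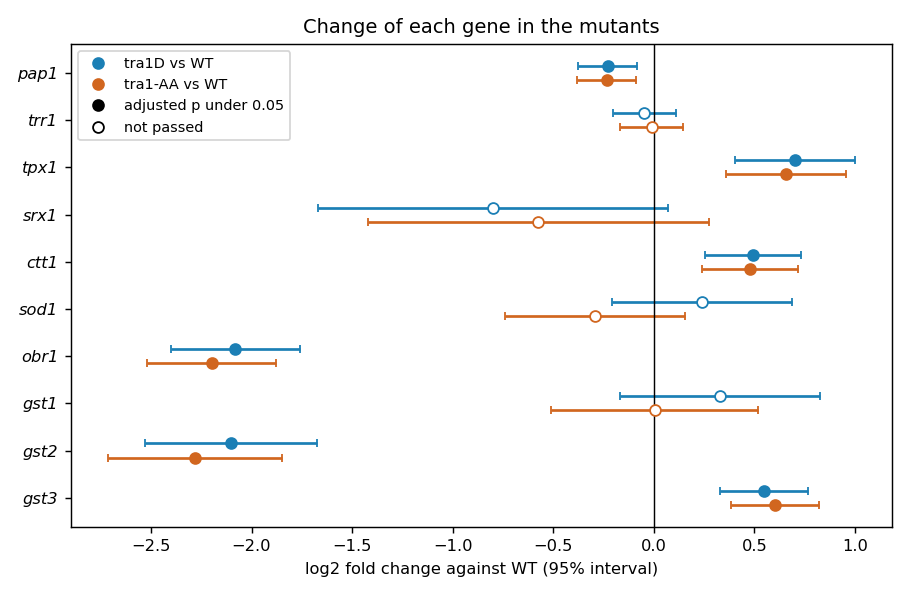
Log2 fold change of each gene against WT in tra1D and tra1-AA from the edgeR fit, with 95% intervals; filled points passed at a BH-adjusted p under 0.05. obr1 and gst2 lie beyond -2, tpx1, ctt1 and gst3 lie above 0, and srx1 and gst1 have wide intervals that include 0.

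The group ranges did not overlap with WT for 7 of the 10 genes in tra1-AA, where 34.7% of all genes tested had such ranges, and for 6 of 10 in tra1D, where 32.7% did. sod1 made the difference. Between the mutants, none of the 10 genes passed (edgeR quasi-likelihood test, 1 with an unadjusted p under 0.05, none by DESeq2). Of all genes tested 0.0407% did (2 genes, 1 of them the deleted tra1 itself, and up to 5 with a library left out). The gene under an unadjusted 0.05 was sod1, at -0.53 (log2) in tra1-AA against tra1D (95% interval -0.98 to -0.09), and it was -0.16 without tra1D replicate 3. For obr1 the difference between the mutants was -0.12 (95% interval -0.43 to 0.20) and for gst2 it was -0.18 (-0.64 to 0.28). Differences of that size are not settled by these libraries.

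**Figure D3:**
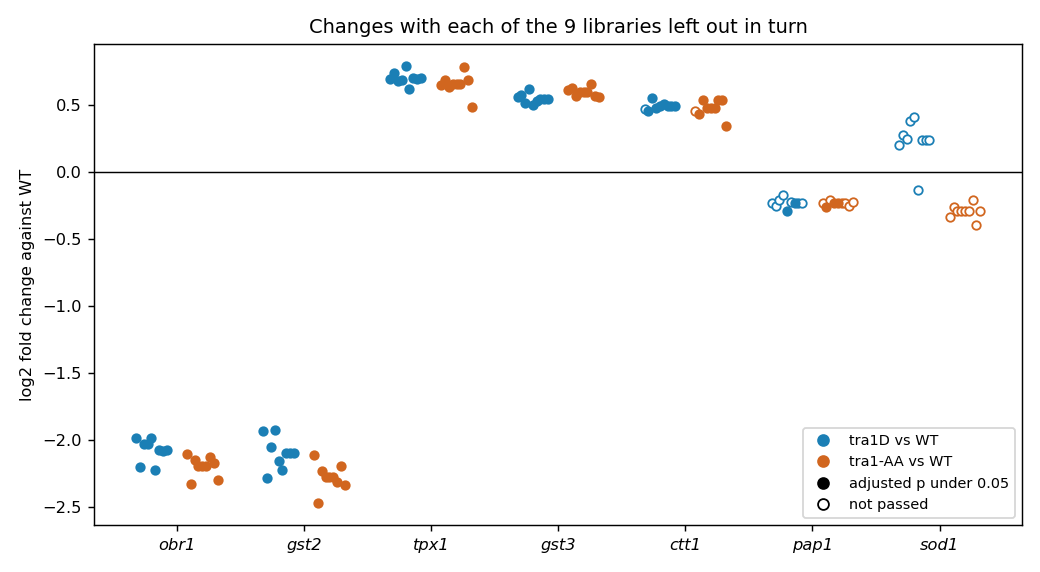
Log2 fold change against WT of 7 genes with each of the 9 libraries left out in turn, for tra1D and tra1-AA; filled points passed at a BH-adjusted p under 0.05. obr1, gst2, tpx1 and gst3 passed in all fits shown, ctt1 missed without WT replicate 1, most fits of pap1 missed, and sod1 in tra1D falls below 0 in 1 fit.

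Set per kilobase of annotated transcript, so that levels of different genes can be compared, the order of the genes changed between genotypes. In WT the mean levels were 982 CPM per kb for tpx1, 780 for obr1, 509 for sod1, 387 for trr1, 133 for gst2, 52.9 for pap1, 25.2 for gst3, 21.4 for ctt1, 7.36 for srx1 and 5.55 for gst1. Of these neighbours only srx1 and gst1 had overlapping ranges. In tra1D the order was tpx1 (1600 CPM per kb), sod1, trr1, obr1 (185), pap1, gst3 (37.0), gst2 (31.1), ctt1 (30.1), gst1 and srx1, where gst3 and gst2, gst2 and ctt1, and gst1 and srx1 overlapped. In tra1-AA it was tpx1 (1550 CPM per kb), sod1, trr1, obr1 (170), pap1, gst3 (38.4), ctt1 (29.8), gst2 (27.4), gst1 and srx1, with overlaps of sod1 and trr1, gst3 and ctt1, ctt1 and gst2, and gst1 and srx1.

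Per kb of annotated transcript, gst2 was the main of the glutathione transferase transcripts in each WT library and no longer so in the mutants. The ratio of gst2 to gst3 per kb was 6.30, 3.65 and 5.94 for the WT libraries, 0.693, 0.847 and 0.966 for those of tra1D and 0.815, 0.603 and 0.737 for those of tra1-AA. All WT ratios were above 1 and all mutant ratios below it. Per kb of coding sequence instead, the mean levels of gst2 and gst3 were 286 and 43.6 CPM in WT. They were 66.8 and 63.8 CPM in tra1D and 58.9 and 66.2 CPM in tra1-AA. In tra1D, which of them is higher thus depends on the length used. The ratio of obr1 to tpx1 per kb was 0.902, 0.618 and 0.876 for the WT libraries, 0.105, 0.116 and 0.125 for those of tra1D and 0.121, 0.111 and 0.101 for those of tra1-AA. Summed over the 10 genes, the share of all counts was 0.281%, 0.248% and 0.286% for WT, 0.251%, 0.251% and 0.314% for tra1D and 0.229%, 0.241% and 0.273% for tra1-AA. Those sums overlapped between all groups while the members within them shifted.

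The profiles over the 9 libraries were compared by the root mean square difference in log2 CPM, centred on the WT mean. Of all genes tested, the one most like obr1 was gst2 (0.186), followed by SPBC1685.17 (0.212) and SPAC2H10.01 (0.242), annotated as a transcription factor. For gst2 they were obr1, pfl3 (0.304), a cell surface glycoprotein gene, and again SPAC2H10.01 (0.317). The genes most like tpx1 were SPAC19G12.09 (0.124), annotated as an aldehyde reductase, tam11 (0.130) and tms1 (0.149), and those most like ctt1 were SPAC19G12.09 (0.101), the sirtuin gene hst2 (0.101) and the mitochondrial ribosomal protein gene mrpl22 (0.105). gst3 was most like psd2 (0.051), mlo2 (0.076) and ins1 (0.101), and pap1 most like gyp3 (0.045), mug132 (0.053) and SPCC663.09c (0.057). Within the 10 genes the closest pairs were ctt1 and gst3 (0.160), tpx1 and gst3 (0.182), and obr1 and gst2.

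TTAGTCA, searched on both strands of the 300 bases before the transcript start, occurred upstream of 3 of the 10 genes, obr1, gst2 and tpx1, and of 4.82% of 5106 protein-coding genes (246). TTACGTAA occurred upstream of obr1 alone among the 10 and of 0.55% of all (28). TGACGT occurred upstream of ctt1 and gst3 and of 6.03% of all (308). No match of one motif overlapped another in the 10 genes. Of the 3 genes with TTAGTCA, 2 fell and 1 rose in each mutant. Across all genes tested, it was upstream of 4.88% of those that fell and 5.38% of those that rose in tra1-AA, of 4.82% and 5.91% in tra1D, and of 4.85% of the genes tested. Among genes that fell at least 2-fold, as obr1 and gst2 did, it was upstream of 6 of 74 in tra1-AA (8.11%) and 5 of 67 in tra1D (7.46%). obr1 and gst2 are themselves counted among these holders in both mutants, so these shares are not independent of them. TGACGT was upstream of 39 of 389 genes that fell and 35 of 390 that rose in tra1-AA, of 28 of 311 and 24 of 254 in tra1D, and of 5.95% of the genes tested. TTACGTAA was upstream of 5 of 389 genes that fell (1.29%) and 4 of 390 that rose (1.03%) in tra1-AA. In tra1D these were 4 of 311 (1.29%) and 4 of 254 (1.57%), beside 0.53% of the genes tested. These are few genes, and obr1 is among those that fell in each mutant. All these are matches of letters, not sites shown to be bound. The windows of obr1, gst2 and tpx1 overlap annotated noncoding genes only, while that of gst3 lies within the transcript of the neighbouring slx4.

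**Figure D4:**
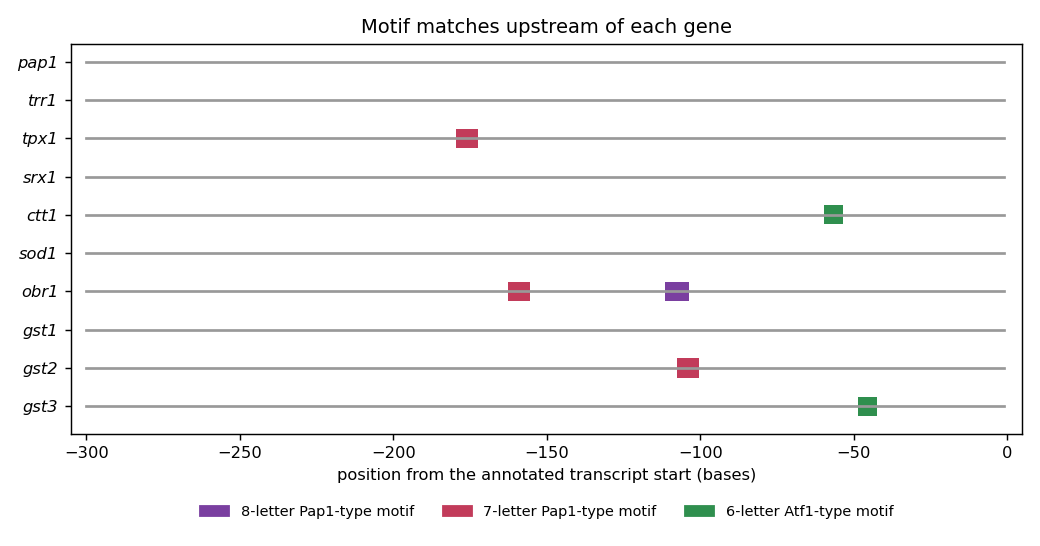
Matches of 3 motifs in the 300 bases before the annotated transcript start of each gene, on either strand; the x axis is the distance from the start in bases. Matches of the 7-letter Pap1-type motif lie upstream of tpx1, obr1 and gst2, the 8-letter one upstream of obr1, and the 6-letter Atf1-type motif upstream of ctt1 and gst3.

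A list of 59 genes of the response, the 10 included, places them among their partners. The list too was chosen with earlier results of these data known. Apart from the 10, 49 genes were tested, of which 3 rose and 8 fell in tra1-AA (22.4%, median log2 fold change -0.04), and 3 rose and 7 fell in tra1D (20.4%, median -0.005). Of all genes tested, 15.9% passed in tra1-AA and 11.5% in tra1D, and the counts of each role below are to be read against these shares. Over the 59 genes 17 passed in tra1-AA, and 11 without WT replicate 1. None of these 49 passed with a change of at least 2-fold in either mutant, and none passed between the mutants (edgeR, 1 of 49 with an unadjusted p under 0.05, none by DESeq2). The sentences that follow give the log2 fold change in tra1-AA and then in tra1D, both from edgeR.

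Among 8 other genes of the thioredoxin and peroxidase system 1 rose and 2 fell in each mutant (37.5%). gpx1, a peroxidase gene of the glutathione peroxidase family, rose by 0.45 and 0.56 (from 120 ± 8.92 CPM in WT to 164 ± 13.2 and 178 ± 7.80 CPM, SD, n = 3). trx2, a thioredoxin gene, had changes of -0.61 and -0.48, and mxr1, a methionine sulfoxide reductase gene, of -0.44 and -0.55. The call of mxr1 in tra1-AA did not survive leaving out WT replicate 1 or tra1-AA replicate 3, with values between -0.54 and -0.38 over the 9 fits with a library left out. The gene for the cytosolic thioredoxin, trx1, had 0.23 and 0.30 and did not pass. Of 9 other glutathione and glutaredoxin genes only grx4, a glutaredoxin gene of iron-sulfur protein assembly, passed (11.1% of the 9 in each mutant), with -0.53 and -0.45. The glutathione synthesis genes gcs1 and gsa1 had -0.13 and -0.09 in tra1-AA and -0.09 and -0.11 in tra1D, and did not pass. sod2, the mitochondrial superoxide dismutase gene, rose by 0.30 and 0.32, with 184 ± 6.99 CPM in WT, 226 ± 8.11 CPM in tra1-AA and 229 ± 6.30 CPM in tra1D.

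None of 6 genes for the transport and partners of Pap1 passed in either mutant (edgeR, 1 with an unadjusted p under 0.05 in tra1-AA and 0 in tra1D; none by DESeq2). They include prr1, a response regulator that acts with Pap1, and the exportin gene crm1, with log2 fold changes of -0.06 and -0.11 in tra1-AA and -0.13 and -0.02 in tra1D. Of the 6 genes other than obr1 listed as Pap1-dependent drug and detoxification genes, 1 rose and 2 fell in tra1-AA (50.0%). In tra1D 1 rose and 1 fell (33.3%). This role does not hold every gene that responds to Pap1. bfr1, an ABC transporter gene of brefeldin A resistance, had -0.58 and -0.64. The transporter gene caf5 had -0.42 in tra1-AA, where it passed, and -0.17 in tra1D, where it did not. sro1 rose by 0.44 and 0.66. With a library left out, the tra1-AA calls of caf5 (-0.49 to -0.32) and sro1 (0.33 to 0.57) were each kept in 5 of 9 fits. Leaving out WT replicate 1, or replicate 1 or 2 of tra1-AA, ended both calls, and the call of caf5 also ended without WT replicate 2 and that of sro1 without WT replicate 3. The ABC transporter genes pmd1 and hmt1 did not pass.

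In the phosphorelay and the Sty1 pathway 3 of 18 genes passed in each mutant, all downward. Their share, 16.7%, is near the 15.9% of all genes tested that passed in either direction in tra1-AA and above the 11.5% in tra1D. Downward alone, 7.96% of all genes tested passed in tra1-AA and 6.35% in tra1D, and 3 genes are few. pyp1, the gene of a phosphatase that inactivates Sty1, had -0.85 and -0.69. Its level was 52.1 ± 4.08 CPM in WT, against 28.9 ± 4.96 CPM for tra1-AA and 32.2 ± 2.55 CPM for tra1D (SD, n = 3). mpr1, the gene of the phosphotransfer protein, had -0.49 and -0.38, and atf1, which encodes the factor that Sty1 activates, had -0.35 and -0.42. The atf1 call was kept in 5 of 9 fits with a library left out in each mutant. It was lost without WT replicate 1 or 2 in both, without tra1-AA replicate 1 or 2 in tra1-AA (values from -0.42 to -0.26) and without tra1D replicate 2 or 3 in tra1D (-0.48 to -0.33). The kinase gene sty1 had -0.02 and 0.05 and did not pass. Of the 59 genes, 12 (20.3%) held TTAGTCA upstream, among them 4 of the 11 that fell in tra1-AA (obr1, caf5, bfr1 and gst2) and 3 of the 10 that fell in tra1D (obr1, bfr1 and gst2). Of the 6 that rose 1 held it, tpx1, in each mutant. The other holders, ccs1, wis4, glo1, bcp1, pgr1, ubr1 and pmd1, did not pass in either mutant. TGACGT was upstream of 11 of the 59 (18.6%). TTACGTAA was upstream of 2 of the 59 (3.39%), obr1, which fell, and gpx1, which rose in both mutants.

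**Figure D5:**
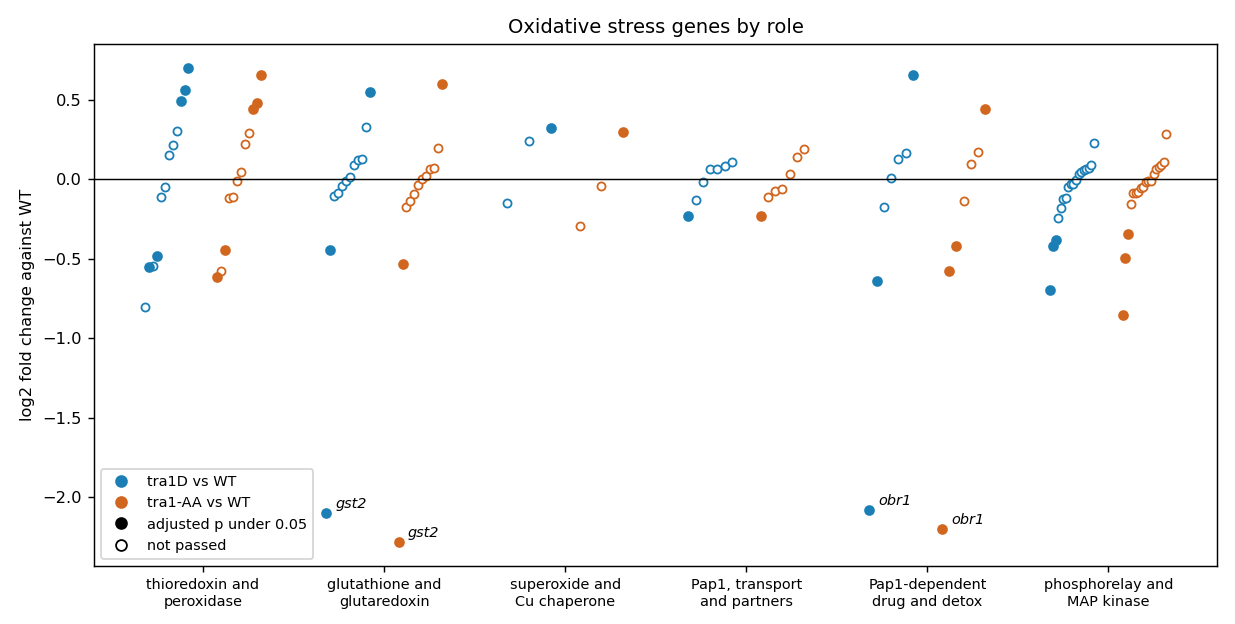
Log2 fold change against WT of the 59 listed genes by role, in tra1D and tra1-AA, each point a gene and filled where the BH-adjusted edgeR p was under 0.05. gst2 and obr1 stand apart from all other points at about -2, and the other genes lie between -0.85 (pyp1 in tra1-AA) and 0.70 (tpx1 in tra1D).

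The authors' deposited tables, made with DESeq2, give the same directions for the 6 genes called here. In the authors' deposited table for tra1-AA the log2 fold changes were -1.97 for obr1, -1.90 for gst2, 0.58 for tpx1, 0.53 for gst3 and 0.41 for ctt1, all with an adjusted p under 0.05. Of the 5057 genes with an adjusted p in that table, 625 were under 0.05. pap1 there had -0.23 with an adjusted p of 0.0523, and sod1 had -0.28 with an adjusted p of 0.0481, so the authors' deposited table and the edgeR fit differ over these 2 genes. In the authors' deposited table for tra1D the values were -1.85 for obr1, -1.71 for gst2, 0.65 for tpx1, 0.49 for gst3 and 0.45 for ctt1, again all under 0.05, and -0.22 with an adjusted p of 0.0942 for pap1.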

How the data were processed

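The 9 libraries are 3 each of WT, tra1D and tra1-AA, grouped by their titles. Per the labels' protocols, TRIzol RNA was treated with DNase, poly(A)-selected and made into stranded TruSeq libraries, which were read in 1 lane. Per the submitters' processing notes, the tools were bcl2fastq, HISAT2 2.1.0, HTSeq 0.9.1 and DESeq2 1.18.1. The deposited count table holds unnormalised read counts for 5129 genes. The authors' deposited comparison tables give a log2 fold change of each mutant against WT, with an adjusted p-value from DESeq2. Genome build, annotation and strand setting: not given in the sources used here.

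Members and gene lists were chosen with earlier results of these data known. filterByExpr (minimum count 10, minimum total 15) kept 4913 genes. 1 edgeR 4.0.16 quasi-likelihood fit (R 4.3.3) with TMM factors over the 9 libraries gave all comparisons, adjusted by Benjamini-Hochberg over all genes kept, with a threshold of 0.05. The common biological coefficient of variation was 0.0932, and replicates differed beyond counting error, with a chi-square over degrees of freedom of 8.28 to 28.28. CPM are counts scaled to a common library size with the TMM factors, with SD over 3 replicates. Summed low counts were compared with exact 95% intervals. The unused per-sample columns numbered 0. The fit was tested on simulated data.

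Gene identifiers were matched to the RefSeq annotation of ASM294v3 (5111 matched, 18 not). Coordinates and sequences are from that build and were not used for the counts. Motifs were searched in 300 bases before each annotated transcript start. The gene list was written from knowledge of the pathway: of 61 names 1 was not matched and 1 was a second name of a listed gene. Identities were computed with BLAST 2.17.0 (near-identical meaning at least 98% over at least 50 bases). All 10 members are described. Of each role in the list, up to 4 genes that passed were named by size of change. Genes of the list that did not pass were named after their values were seen, as examples. The 3 genes most like each member called the same way in both mutants were named by the root mean square difference.

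Deviations from the group means of same-numbered WT and tra1-AA libraries correlated at 0.109, 0.357 and 0.215 over genes. Unlike-numbered libraries of these groups lay between -0.351 (WT 3 and tra1-AA 2) and 0.085 (WT 1 and tra1-AA 2). Unlike-numbered libraries of the mutants reached 0.22 (tra1D 2 and tra1-AA 1), so such values do not establish a pairing. The labels do not say what a number marks. The same-numbered values were -0.074, -0.116 and -0.01 for WT and tra1D and -0.203, -0.078 and -0.017 for the mutants, all below 0. Alternatives were DESeq2 1.42.0, DESeq2 size factors, library totals, no filter, a mean of at least 10 CPM, only the groups compared, a replicate block and each library left out. Figures were drawn with matplotlib 3.10.9.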

Additional observations from a re-analysis of the deposited data

How the results depend on the processing

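Of 484 values of the 10 genes under alternatives, 443 kept their direction and their side of the threshold, 19 lost the call, 1 gained it and 21 changed sign. obr1, gst2, tpx1 and gst3 passed in all 17 alternatives run for tra1-AA and all 16 for tra1D. The 19 losses were of pap1 (7 in tra1-AA and 10 in tra1D) and of ctt1 (1 in each, without WT replicate 1). The gain was sod1 in tra1-AA under the replicate block with only WT and tra1-AA, an alternative chosen after seeing the data. With that block 903 genes, 19 of the 59 listed genes and 7 of the 10 passed. The planned replicate block over all libraries gave 718 genes, 16 listed genes and 6 of the 10 in tra1-AA, and 514 genes, 16 listed genes and 5 of the 10 in tra1D, where pap1 was lost. It changed no other call of the 10 genes. With a library left out, the genes that passed numbered 364 to 845 in tra1-AA, 278 to 655 in tra1D and 2 to 5 between the mutants (4 with DESeq2), and the listed genes in tra1-AA 11 to 17. With library totals alone, rises made up 59.8% of the calls in tra1-AA against 49.9% with TMM, and 64.9% against 44.9% in tra1D.

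The changes of sign were of values that did not pass in the fit reported. Against WT, trr1 with library totals had 0.036 in tra1-AA and 0.026 in tra1D. gst1 in tra1-AA had -0.007 with DESeq2 size factors, -0.006 with the DESeq2 test and -0.002 with only the groups compared. With a library left out, log2 fold changes against WT ran from -0.034 to 0.024 for trr1 and from -0.107 to 0.123 for gst1 in tra1-AA, and from -0.135 to 0.41 for sod1 in tra1D. Between the mutants they ran from -0.058 to 0.059 for pap1, -0.003 to 0.077 for trr1, -0.219 to 0.08 for tpx1, -0.04 to 0.766 for srx1, -0.22 to 0.03 for obr1, -0.152 to 0.049 for ctt1 and -0.016 to 0.112 for gst3. The cause was not tested. srx1 and gst1 have no value under the filter of at least 10 CPM. Their few counts, and for srx1 also the spread between replicates, limit what could be detected. Scaling moved the median of all genes by at most 0.073 log2 units.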
